A study of Mus musculus with 24 samples.

Results

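The comparison described here is between mouse embryonic stem (ES) cells labelled as knock-out for REST (RESTko) and ES cells labelled as wildtype (RESTwt), with 3 expression arrays of each. They are 6 of the 18 arrays measured on one Affymetrix platform and 6 of 24 arrays in the series, and they were chosen by their titles, which give the stage, the genotype and a replicate letter from a to c. Both groups of ES cells came from the strain Black Agouti 129 and differ in the labels only by genotype. The same series measured neuronal progenitors (NP), again RESTko against RESTwt, and terminal neurons (TN), where the comparator was heterozygous (RESThet), with 3 arrays in each group and the same strain in the labels. Titles of the ES and NP arrays begin with 1 and those of the TN arrays with 2, a difference that the labels do not explain. Total RNA was purified with TRIzol and an RNeasy column and labelled by the Affymetrix whole-transcript assay. Neither the labels nor the files say which exons of Rest were removed, how many ES cell lines or clones the arrays stand for, or whether the 3 arrays of a group came from separate cultures. The p-values therefore measure the spread between arrays, which may be technical.

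REST is a zinc finger repressor. It binds a DNA element called RE1 near neuronal genes and recruits corepressor complexes that remove active histone marks, and it is abundant in ES cells and other cells that are not neurons and falls as neurons mature. The genes it is best known for encode the machinery of neurotransmitter storage and release, neuronal ion channels and the neuronal cytoskeleton. The comparison asks which genes differ in pluripotent cells when REST is removed.

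Signals are log2 values of probe sets, so a difference of 1 stands for a 2-fold change in signal. Over 19938 genes, Pearson's r was 0.996 to 0.998 for 2 arrays of the same ES group and 0.990 to 0.994 for 2 arrays of different ES groups, and the median signal of the 6 arrays lay between 5.46 and 5.53. A gene was called when its adjusted p from limma was under 0.05 (Benjamini-Hochberg over all genes), and the median standard error (SE) of a difference was 0.10. The pluripotency genes Pou5f1, Nanog and Tdgf1 marked all 6 arrays as ES cells. The lowest ES signal of Pou5f1 was 11.26 against a highest signal of 7.98 in any NP or TN array. For Nanog these values were 11.20 and 8.72, and for Tdgf1 11.84 and 7.74.

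Rest itself was measured by 1 probe set. It read 8.63, 8.53 and 8.66 in the RESTko arrays a, b and c and 8.95, 8.99 and 8.95 in the RESTwt arrays. The groups did not overlap, but Rest was only 1.28-fold lower in the arrays labelled RESTko (difference -0.36, SE 0.07, adjusted p = 0.00234, limma). The sources used here do not say whether this probe set covers the deleted part of the gene, so it gives a limited check of the labels, and the direction of each comparison below rests on them. At the later stages Rest went against the labels or did not separate the groups. It differed by -0.01 at NP (SE 0.07, adjusted p = 0.958, limma), and at TN it was 0.34 higher in the arrays labelled RESTko than in those labelled RESThet (SE 0.07, adjusted p = 0.0187, limma).

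A set of neuronal genes was higher in the RESTko ES cells, by up to 27.7-fold (Scg3). Keratins of simple epithelia were higher by up to 3.04-fold (Krt8) and genes of smooth muscle and the actin cytoskeleton by up to 2.80-fold (Tagln). Genes of a germline list, which holds genes named in earlier results of these data, were prominent among the genes that fell. Among pluripotency genes Pou5f1, Nanog and Sox2 did not pass the test, while 4 of 27 fell and 1 rose. In addition, genes along the whole of chromosome 8 were lower by a small amount in the RESTko arrays, and those of chromosome X by a smaller one. In all, 1842 of 19938 genes were called (9.24%), of which 1034 were higher (5.19%) and 808 lower (4.05%) in RESTko. The 3 arrays of each group did not overlap for 29.4% of all genes. Among the called genes 120 were at least 2-fold higher and 29 at least 2-fold lower, and 15 were at least 4-fold higher against 1 lower, Smc1b.

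Of the 15 genes with the largest increases, 9 were on a list of known RE1 targets. Like every gene list used here, it was chosen with earlier results of these data known, so the overlap is not independent evidence. Scg3, a secretogranin of dense-core secretory granules, led by a wide margin. Its signal was 8.20, 8.08 and 8.26 in the RESTko arrays and 3.50, 3.30 and 3.37 in the RESTwt arrays. The gap between the groups was far wider than the spread inside either (difference 4.79, SE 0.13, adjusted p = 1.14e-13, limma). Syp, the synaptic vesicle membrane protein synaptophysin, read 8.05, 8.06 and 8.10 against 5.40, 5.25 and 5.40. All RESTko arrays lay far above all RESTwt arrays (6.58-fold, SE of the log2 difference 0.11, adjusted p = 2.73e-11, limma).

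**Figure D1:**
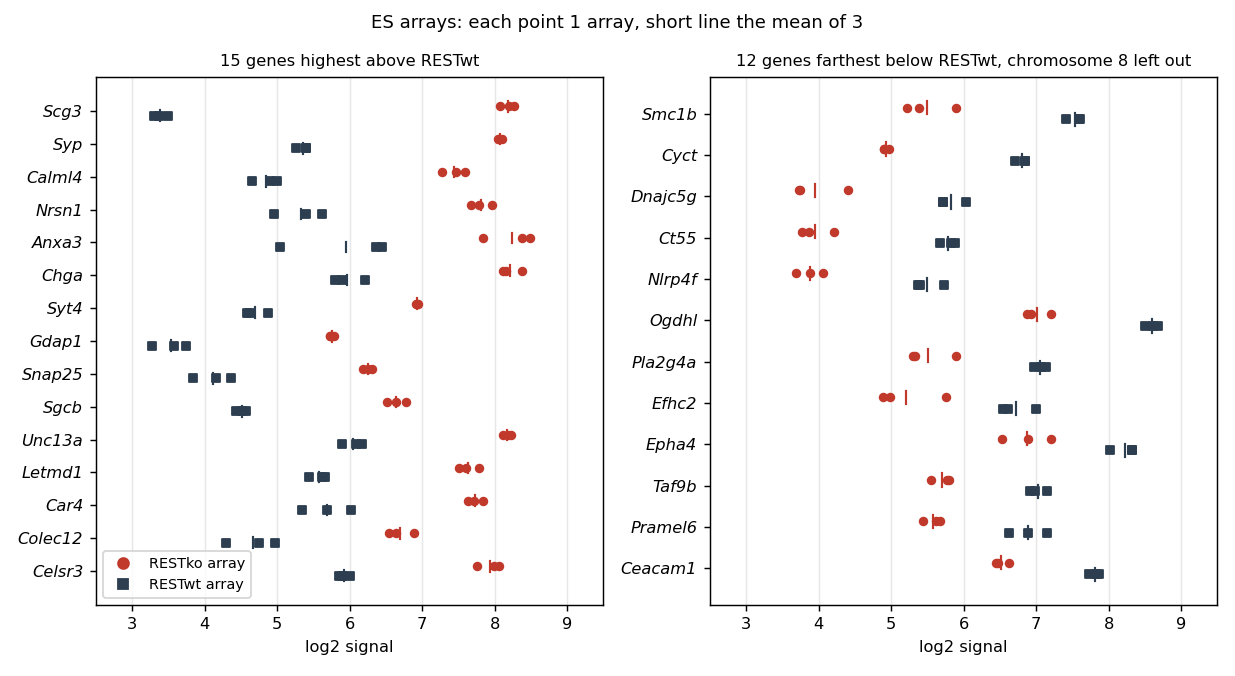
Log2 signal (horizontal axis) in each ES array for the 15 genes highest above RESTwt (left) and the 12 genes farthest below it outside chromosome 8 (right), with RESTko arrays as circles, RESTwt arrays as squares and a short line at each mean of 3. Groups do not overlap for these genes, since that was part of the rule that chose them; Scg3 has the widest gap, 4.79, and Anxa3 the widest spread inside a group, from 5.05 to 6.45 in RESTwt.

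Genes of the dense-core granule, which stores peptide hormones and neuropeptides, included the largest increase of all, that of Scg3. Of 16 measured members of the list, 6 rose (37.5%, against 5.19% of all genes) and 0 fell. The median difference was 0.35 against -0.03 over all genes. At an unadjusted p under 0.05 in limma, 8 were higher and 0 lower. Chga, the granule core protein chromogranin A, read 8.16, 8.11 and 8.38 in RESTko and 5.90, 5.79 and 6.21 in RESTwt. It was 4.76-fold higher with no overlap (adjusted p = 6.66e-09, limma). Vgf, the precursor of several neuropeptides, rose by 1.49 (SE 0.24), from a mean of 5.31 ± 0.11 to 6.80 ± 0.11 (SD, n = 3 each). Ptprn, a phosphatase-like protein of the granule membrane, rose by 1.43 (SE 0.16). The prohormone convertase gene Pcsk1 rose by 0.83 (SE 0.18) and the granule protein gene Scg5 by 0.66 (SE 0.12). Other granule genes did not pass the test. Chgb, chromogranin B, differed by 0.31 (SE 0.18, adjusted p = 0.334, limma), and Scg2, secretogranin II, by 0.25 (SE 0.14, adjusted p = 0.317, limma). Of 20 genes of neuropeptides and neurotrophins 1 rose (5%, near the 5.19% of all genes) and 0 fell. It was Nppb, which rose by 0.34, and its call was lost without RESTko array a (adjusted p = 0.0865, limma).

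Of 24 genes of the release machinery, 7 rose (29.2%, against 5.19% of all genes) and 1 fell (4.17%, against 4.05%), with a median of 0.04. Syt4, a synaptotagmin of secretory vesicles, read 6.91, 6.93 and 6.94 in RESTko against 4.63, 4.59 and 4.88 in RESTwt. Its RESTko arrays nearly coincided, and it was 4.69-fold higher (adjusted p = 5.35e-08, limma). Snap25, the plasma membrane SNARE protein of transmitter release, read 6.31, 6.19 and 6.26 against 4.36, 3.84 and 4.16, a 4.39-fold difference (adjusted p = 9.26e-08, limma). Unc13a, which primes vesicles for fusion, read 8.12, 8.18 and 8.22 against 5.90, 6.09 and 6.17. It was 4.35-fold higher (adjusted p = 6.29e-07, limma) although it lies on chromosome 8, where most genes were lower. Cplx1, the SNARE-binding protein complexin, rose by 1.69 (SE 0.08), Pclo, a scaffold of the active zone, by 1.15 (SE 0.15), Rims2, an active zone scaffold, by 0.70 (SE 0.09) and Stx1a, a SNARE partner of Snap25, by 0.69 (SE 0.09). Rims1, a paralog of Rims2, was the member that fell, by 0.46 (SE 0.12, adjusted p = 0.0173, limma), and its call was lost without RESTko array a (adjusted p = 0.106). Of 23 synaptic vesicle genes only Syp and Rab3c, a vesicle GTPase, rose (Rab3c by 1.13, SE 0.25), and 0 fell. The share that rose was 8.70%, not far from the 5.19% of all genes. At an unadjusted p under 0.05, 3 were higher and 1 lower. Syn1, which tethers vesicles to actin, differed by 0.13 (SE 0.12, adjusted p = 0.59, limma).

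The neuronal cytoskeleton list had the largest share of increases of the 9 neuronal lists: 13 of 28 members rose (46.4%) and 0 fell, with a median of 0.47. The list also holds Nrsn1, Gdap1 and Nmnat2, which are not cytoskeletal proteins and are among its largest increases. It was drawn up with earlier results of these data known, so this ranking is not independent evidence. At an unadjusted p under 0.05 the limma counts were 17 higher and 1 lower. Nrsn1, a vesicle and neurite protein of neurons, read 7.79, 7.68 and 7.97 in RESTko and 5.62, 5.40 and 4.95 in RESTwt, with no overlap (5.60-fold, adjusted p = 7.67e-08, limma). Gdap1, a protein of the outer mitochondrial membrane that is mutated in inherited neuropathy, read 5.73, 5.78 and 5.73 against 3.74, 3.58 and 3.27 (4.65-fold, adjusted p = 5.36e-07, limma). Stmn3, a microtubule-destabilizing stathmin, read 8.07, 8.17 and 7.91 against 6.22, 6.08 and 6.15. It was 3.73-fold higher (adjusted p = 5.66e-07, limma). Nmnat2, which makes NAD and keeps axons alive, rose by 1.55 (SE 0.11). The neurofilament genes moved together: Nefm rose by 1.27 (SE 0.19), Nefl by 1.14 (SE 0.19), Ina by 1.11 (SE 0.14) and Nefh by 0.78 (SE 0.13). Crmp1, which transmits semaphorin signals to the cytoskeleton, rose by 1.28 (SE 0.17). Tubb3, the neuronal beta-tubulin, rose by 0.53 (SE 0.12). By contrast Mapt, which encodes tau, differed by -0.14 (SE 0.21, adjusted p = 0.767, limma) and Gap43, a growth cone protein, by -0.20 (SE 0.09, adjusted p = 0.178, limma).

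Of 13 neuronal RNA-binding proteins 3 rose (23.1%, against 5.19% of all genes) and 0 fell (5 higher and 2 lower at an unadjusted p under 0.05, limma). They were Elavl3, a stabilizer of neuronal mRNAs, at 1.28 (SE 0.16), and the splicing regulators Celf6 at 0.73 (SE 0.14) and Celf5 at 0.64 (SE 0.14). Among voltage-gated channels, 5 of 31 genes were called higher (16.1%) and 0 lower (7 and 1 unadjusted), with a median of -0.05. Scn3b, a sodium channel beta subunit, read 6.58, 6.24 and 6.36 in RESTko and 5.06, 4.69 and 5.08 in RESTwt, 2.73-fold apart (adjusted p = 1.2e-06, limma). Cacna1b, the pore of the N-type calcium channel, rose by 1.22 (SE 0.16), and the pacemaker channel genes Hcn3 and Hcn2 by 1.06 (SE 0.14) and 0.62 (SE 0.12). Scn2a, a sodium channel gene long used as a model RE1 target, differed by -0.16 (SE 0.14, adjusted p = 0.572, limma). It has 14 probe sets, and this value is from the 1 with the highest mean over the 18 arrays. Of 28 transmitter receptor genes 5 rose (17.9%) and 0 fell (5 and 2 unadjusted). Chrnb2, a nicotinic acetylcholine receptor subunit, read 6.29, 6.23 and 6.25 against 4.20, 4.52 and 4.64. It was 3.49-fold higher (adjusted p = 1.12e-07, limma). Drd2, a dopamine receptor, rose by 0.93 (SE 0.15), and the AMPA receptor subunit Gria3 by 0.59 (SE 0.11). The calls of Grik3 (0.86) and Gria4 (0.51), kainate and AMPA receptor subunits, were lost without RESTko array a (adjusted p = 0.0748) and without RESTwt array a (adjusted p = 0.0574). Of 28 genes of axon guidance and adhesion 2 rose (7.14%) and 1 fell (3.57%), shares near the 5.19% and 4.05% of all genes. Celsr3, an atypical cadherin needed for axon tracts, read 7.99, 7.76 and 8.07 against 5.85, 5.89 and 6.01 (4.06-fold, adjusted p = 3.84e-08, limma). Unc5b, a netrin receptor, rose by 0.46, a call lost without RESTko array a (adjusted p = 0.0901, limma), and Slit2, a repulsive guidance ligand, fell by 0.69 (SE 0.11).

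Taken over the 9 neuronal lists, 44 of 211 measured genes rose and 2 fell, a share of 20.9% against 5.19% of all genes. Over the other settings tried the increases numbered 40 to 58 and the decreases 1 to 11, the highest of each with array weights (58 also with the ES arrays alone). The increases lay mostly in RE1 targets. Among 161 neuronal genes that were not on the RE1 list 15 rose (9.32%) and 2 fell (1.24%), with a median of 0.005. Of 59 RE1 targets 31 rose (52.5%) and 0 fell, with a median of 0.53. At an unadjusted p under 0.05, 34 RE1 targets were higher and 0 lower, and 30 of the 31 calls held without any single array, Nppb being the exception. The lists overlap, because 50 of the 211 neuronal genes are RE1 targets. All were chosen with earlier results of these data known, so these shares are not independent evidence. Members outside the neuronal lists included Rundc3a, a Rap-binding protein of neurons (1.49, SE 0.15), and Mapk8ip2, a JNK scaffold (1.32, SE 0.14). The 28 RE1 targets that were not called at ES included genes at low and at high signal. Gria2, an AMPA receptor subunit, read 2.69 to 2.95 in all 6 ES arrays. By contrast the stathmin gene Stmn2 read 8.88 to 9.54 and Syn1 read 6.88 to 7.09 in the same arrays. Only 3 of the 59 RE1 targets lay in the dimmest 30% of genes, ranked by mean signal over all stages. Whether low signal kept any of them from being called was not tested.

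**Figure D2:**
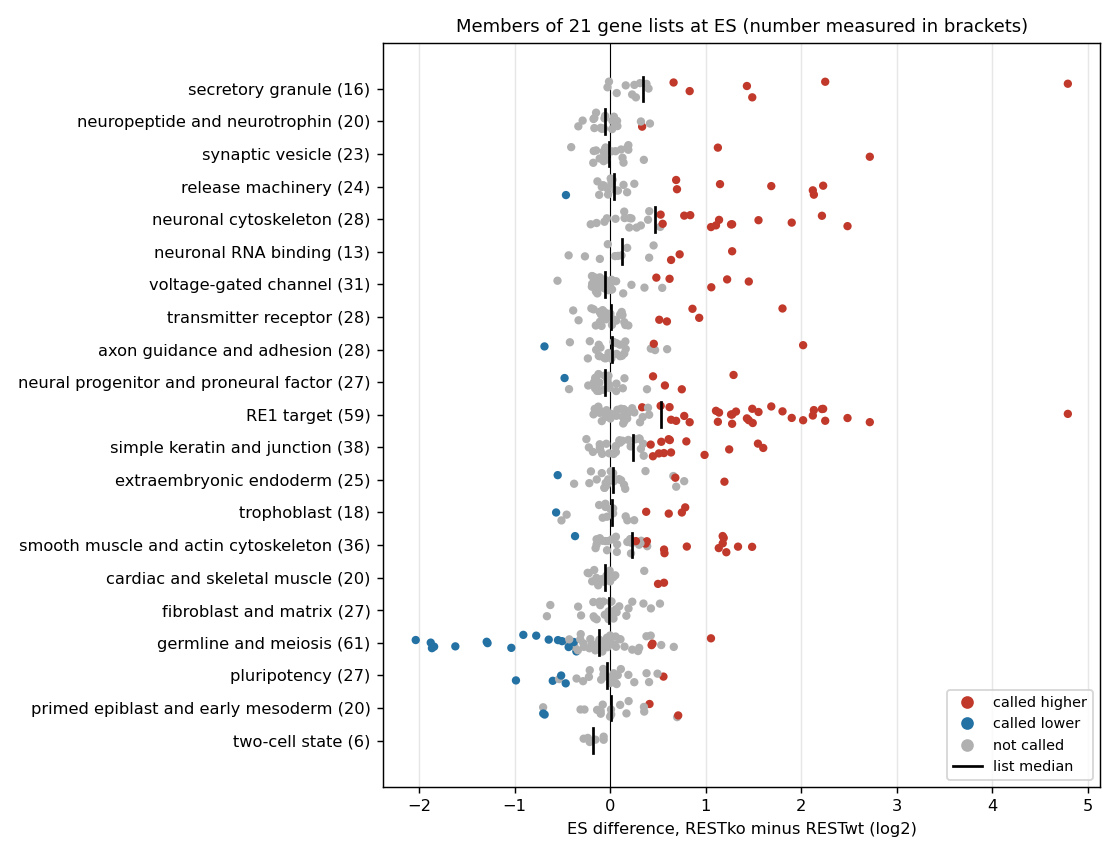
Difference between RESTko and RESTwt at ES (horizontal axis, log2) for each measured member of 21 gene lists, coloured by call, with the list median as a black bar. The RE1 list holds 31 increases and 0 decreases with a median of 0.53, the germline list holds 16 decreases and 3 increases with a median of -0.12, and the fibroblast and 2-cell lists hold 0 calls.

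Letters that match or nearly match the RE1 element can be shown for a few genes. RE1 holds a left part, CAGCACC, and a right part, GGACAG, which in the canonical element are 2 bases apart. Windows from 250 bases before to 50 bases after each gene's start (RefSeq, GRCm38.p6) were available for 15563 genes and were searched on both strands for the pair with exactly 2 bases between the parts. The exact pair was found for 9 genes (0.0578%), none of which was called higher and 1 of which was called lower. With at most 1 mismatch in the 13 fixed letters, a search added after the data had been seen, the pair was found for 43 genes (0.276%). It was present for 6 of 849 genes called higher (0.707%), 3 of 88 called at least 2-fold higher (3.41%), 2 of 628 called lower (0.318%), 35 of 14086 not called (0.248%) and 4 of 42 RE1 targets (9.52%). CAGCACC alone occurred for 8.63% of all genes and 21.4% of RE1 targets, and GGACAG alone for 25.9% and 23.8%. A match is a description of these letters in this window and not a binding site, and RE1 elements often lie outside such windows. The matches below are printed because they show what the pair looks like beside genes that rose, did not pass the test, or fell. They were chosen by the match after the values were known, and each is given on the strand that carries the pair, with the pair in capitals.
Celsr3: ctccgttCAGCACCGTGGGCAGcacttct
Dner: gccggttCAGCACCAAGGACAAgggcccc
Crip2: cctccttCAGCACCACAGACAGgaccgcg
Lhfpl5: cgcgtttCAGCACCGCGGCCAGcgccaga
Syn1: tcggattCAGCACCGCGGTCAGagccttc
Gria2: tcgatttTAGCACCGCGGACAGcgctttg
Ogdhl: gggaggtCAGCACCTCGGACAGcgagggc
The pair of Celsr3 lies at chr9:108825920-108825934 on the plus strand and begins at position -125 from the gene's start. That of Dner, a Notch ligand-like protein of neurons that rose by 1.32 (adjusted p = 0.000386, limma), lies at chr1:84696355-84696369 on the minus strand. That of Crip2, a LIM domain protein that rose by 1.03 (adjusted p = 3.46e-05), lies at chr12:113140083-113140097 on the plus strand. Lhfpl5, which hair cells need for mechanotransduction and which rose by 0.98 (adjusted p = 4.6e-06), has it at chr17:28575645-28575659 on the minus strand. These 4 windows each hold 1 mismatch, as do those of the uncalled RE1 targets Syn1 (chrX:20921134-20921148, minus strand) and Gria2 (chr3:80802991-80803005, plus strand). The exact pair stands before Ogdhl, a homolog of the mitochondrial 2-oxoglutarate dehydrogenase (chr14:32321916-32321930, plus strand), at position -103 from its start. Ogdhl fell. It read 6.93, 6.87 and 7.21 in RESTko and 8.68, 8.50 and 8.62 in RESTwt, 3.01-fold lower with no overlap (adjusted p = 1.67e-08, limma).

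Other genes of the 15 with the largest increases were on none of the 21 lists. Calml4, a calmodulin-like protein, read 7.59, 7.47 and 7.27 in RESTko and 5.0, 4.66 and 4.90 in RESTwt, a 6.03-fold difference (adjusted p = 5.15e-11, limma). Sgcb, beta-sarcoglycan of the dystrophin complex, read 6.51, 6.78 and 6.64 against 4.58, 4.44 and 4.52 (4.38-fold, adjusted p = 4.29e-10, limma). Letmd1, a protein of the inner mitochondrial membrane, read 7.60, 7.51 and 7.79 against 5.62, 5.66 and 5.44 (4.17-fold, adjusted p = 4.29e-10, limma). In these 3 genes the arrays of each group lay close together and far from the other group. Anxa3, a calcium-dependent phospholipid-binding annexin, was more variable: 8.49, 8.38 and 7.84 against 6.45, 6.36 and 5.05, with array c the lowest of both groups (difference 2.28, SE 0.33, adjusted p = 0.000149, limma). Car4, a membrane-bound carbonic anhydrase, rose by 2.04 (SE 0.23), and Colec12, a scavenger receptor with a lectin domain, by 2.03 (SE 0.23). Of the 120 genes that were at least 2-fold higher, 41 were on a list and 79 on none.

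Keratins of simple epithelia and genes of cell junctions formed another group that rose at ES. Of 38 measured members 13 rose (34.2%, against 5.19% of all genes) and 0 fell, with a median of 0.24. At an unadjusted p under 0.05 the limma counts were 17 higher and 0 lower. Krt8, a type II keratin of simple epithelia, read 9.86, 9.68 and 8.97 in RESTko and 8.36, 8.23 and 7.12 in RESTwt. The groups did not overlap, and array c was the lowest of each (3.04-fold, adjusted p = 0.000777, limma). Its type I partner Krt18 read 9.25, 9.34 and 8.46 against 7.69, 7.73 and 6.98 (2.92-fold, adjusted p = 8.67e-05, limma). Krt19 read 8.65, 8.57 and 8.16 against 7.59, 7.62 and 6.43, again with array c the lowest of each group (2.37-fold, adjusted p = 0.00261, limma). Dsc2, a desmosomal cadherin, rose by 0.99 (SE 0.20), Krt7 by 0.80 (SE 0.17), Grhl2, an epithelial transcription factor, by 0.63 (SE 0.13) and Perp, a desmosomal protein, by 0.61 (SE 0.14). Cldn6, a tight junction claudin of early embryonic epithelia, rose by 0.64, a call lost without RESTwt array b (adjusted p = 0.102, limma). Of the 13 calls 9 held without any single array. Cdh1, E-cadherin, lies on chromosome 8 and differed by -0.11 (SE 0.22, adjusted p = 0.846, limma), or by 0.16 after the median offset of that chromosome was subtracted. Epcam, an epithelial adhesion protein, read 9.53, 9.51 and 9.41 against 9.13, 9.12 and 9.15. Its groups did not overlap, but it did not pass the test (difference 0.35, SE 0.23, adjusted p = 0.422, limma), in which the SE comes from the spread over all 18 arrays. The mean level of the list was 7.42, 7.42 and 7.38 in the RESTko arrays and 7.11, 7.12 and 7.02 in the RESTwt arrays.

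Of 36 genes of smooth muscle and the actin cytoskeleton 13 rose (36.1%, against 5.19% of all genes) and 1 fell (2.78%, against 4.05%). The median was 0.23. Tagln, the actin-bundling protein transgelin, read 7.87, 7.80 and 7.44 in RESTko and 6.53, 6.37 and 5.75 in RESTwt. The groups did not overlap and array c was again lowest in both (2.80-fold, adjusted p = 0.000401, limma). Lpp, a focal adhesion LIM protein, rose by 1.34 (SE 0.25), Cald1, the actin-binding caldesmon, by 1.22 (SE 0.18), Tpm1, a tropomyosin, by 1.18 (SE 0.17) and the calponins Cnn2 and Cnn1 by 1.14 (SE 0.15) and 0.80 (SE 0.15). Ccn1, a matrix-associated signalling protein, rose by 1.18 (SE 0.16). Acta2, smooth muscle actin, split the RESTko arrays: it read 8.39 and 8.37 in a and b but 7.13 in c, against 6.88, 6.75 and 6.69 in RESTwt. Its call (difference 1.19, adjusted p = 0.0149, limma) was lost without RESTko array a (adjusted p = 0.0904). Lima1, an actin-bundling LIM protein, was the member that fell, by 0.37, a call lost without RESTwt array c (adjusted p = 0.0792, limma). The mean level of the list was 7.50, 7.50 and 7.41 in RESTko and 7.14, 7.15 and 7.0 in RESTwt. Of 20 genes of cardiac and skeletal muscle 2 rose (10%) and 0 fell. They were the cardiac factor Tbx20 by 0.50 and skeletal actin Acta1 by 0.56, the latter lost without RESTwt array c (adjusted p = 0.0961). Of 27 genes of fibroblasts and matrix 0 were called by limma (3 higher and 4 lower at an unadjusted p under 0.05), with a median of -0.02. In bulk RNA, more cells of a type and more RNA per cell cannot be told apart, and the part of differentiated cells in these differences was not tested.

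Genes that fell outside chromosome 8 were led by the germline. Of the 12 with the largest decreases, 5 were on a list of germline and meiosis genes. That list holds genes named in earlier results of these data, so the overlap is not independent evidence. Smc1b, the cohesin subunit of meiotic chromosomes, read 5.38, 5.22 and 5.89 in RESTko and 7.59, 7.41 and 7.60 in RESTwt. It was 4.10-fold lower with no overlap (adjusted p = 4.89e-07, limma). Cyct, the cytochrome c of the testis, read 4.97, 4.91 and 4.90 against 6.84, 6.71 and 6.85 (3.67-fold lower, adjusted p = 4.41e-06, limma). Dnajc5g, a testis member of the cysteine string protein family, read 3.72, 3.74 and 4.41 against 5.71, 5.71 and 6.04, with RESTko array c the highest of its group (3.64-fold lower, adjusted p = 5.66e-07, limma). Ct55, a cancer/testis gene on chromosome X, fell by 1.84 (SE 0.11) and Nlrp4f, an NLR family gene of the oocyte, by 1.62 (SE 0.13).

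Over the whole germline list, 16 of 61 measured genes fell (26.2%, against 4.05% of all genes) and 3 rose, with a median of -0.12. These shares carry the same limit, since the list holds genes named in earlier results. Sohlh2, a transcription factor of early germ cells, fell by 1.29 (SE 0.23), Tex11, a meiotic recombination factor on chromosome X, by 1.28 (SE 0.24) and Stag3, a meiotic cohesin subunit, by 1.03 (SE 0.14). Piwil2, which binds piRNAs, fell by 0.91 (SE 0.11) and Dazl, an RNA-binding protein of germ cells, by 0.77 (SE 0.12). Of the 16 calls 11 held without any single array. The calls of Mael, Hormad2, Syce2, Nanos3 and Gtsf1, with differences of -0.64 to -0.35, were each lost without some array (adjusted p up to 0.202, Hormad2 without RESTko array b). Signals were low for many members: 31 of the 61 lay in the dimmest 30% of genes over the 18 arrays, among them 7 of the 16 that fell. Of the 16, 2 lay on chromosome 8 and 2 on X. Tex15, which acts in meiotic recombination and transposon silencing, went the other way. It read 6.25, 5.90 and 6.32 against 5.23, 5.11 and 4.96 and was 2.08-fold higher (adjusted p = 9.07e-06, limma) in spite of its place on chromosome 8. Tdrd5, a tudor protein of the piRNA pathway, rose by 0.44 and Zp3, an egg coat protein, by 0.43, a call lost without RESTwt array c (adjusted p = 0.0541, limma). Core meiotic genes did not all follow: Sycp3, of the synaptonemal complex, differed by 0.38 (SE 0.15, adjusted p = 0.138) and Ddx4, the germ cell helicase, by 0.42 (SE 0.15, adjusted p = 0.102, limma).

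The other genes with the largest decreases had varied roles. Pla2g4a, the cytosolic phospholipase that releases arachidonic acid, read 5.32, 5.30 and 5.89 in RESTko and 7.06, 6.97 and 7.13 in RESTwt (2.93-fold lower, adjusted p = 3.49e-05, limma). Epha4, an ephrin receptor, read 7.20, 6.88 and 6.53 against 8.32, 8.32 and 8.02 (2.55-fold lower, adjusted p = 1.68e-06, limma). Ceacam1, a cell adhesion protein of the immunoglobulin family, read 6.62, 6.47 and 6.44 against 7.87, 7.82 and 7.73 (2.45-fold lower, adjusted p = 1.67e-06, limma). None of these groups overlapped, but that was part of the rule that chose the genes with the largest changes, here and on chromosome 8. Efhc2, an EF-hand protein, fell by 1.51 (SE 0.20), Taf9b, a TFIID-related factor, by 1.31 (SE 0.14) and Pramel6, a PRAME family gene of early embryos and ES cells, by 1.31 (SE 0.19). Efhc2 and Taf9b lie on chromosome X.

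The pluripotency list held few calls, more of them decreases. Of its 27 genes 1 rose (3.70%, against 5.19% of all genes) and 4 fell (14.8%, against 4.05%), with a median of -0.03, and the groups did not overlap for 17 of the 27, against 29.4% of all genes. The decreases numbered 1 to 2 when single arrays were left out and 2 to 7 over the other settings. For the increases these ranges were 0 to 1 and 0 to 4. Pou5f1 read 11.30, 11.26 and 11.34 in RESTko and 11.40, 11.38 and 11.34 in RESTwt. Nanog read 11.41, 11.27 and 11.21 against 11.21, 11.20 and 11.24, and Sox2 differed by 0.00 (95% interval -0.42 to 0.42). The intervals of the fit for Pou5f1 (-1.12 to 0.98) and Nanog (-1.08 to 1.24) are much wider than the spread of the ES arrays, because the fit shares 1 spread per gene over 18 arrays that include NP and TN. Fgf4, a growth factor that prepares ES cells for differentiation, read 8.33, 8.36 and 8.40 against 8.93, 8.91 and 9.05 (1.52-fold lower, adjusted p = 0.0002, limma). Zfp42, the naive-state marker also called Rex1, read 9.99, 9.85 and 9.86 against 10.89, 10.82 and 10.96. It lies on chromosome 8, and its call (difference -0.99, adjusted p = 0.0406) was lost without RESTwt array c (adjusted p = 0.129). The calls of Prdm14 (-0.51, without RESTwt array c, adjusted p = 0.111), Tcl1 (-0.46, without RESTko array b, 0.102) and Eras (0.56, without RESTko array a, 0.0579) were also lost. Of 20 genes of the primed epiblast and early mesoderm 2 rose and 2 fell (10% each, against 5.19% and 4.05% of all genes). Fgf5, a marker of the primed state, rose by 0.71 (SE 0.09) and Dnmt3a, a de novo DNA methyltransferase, by 0.41 (SE 0.08). The zinc finger genes Zic5 and Zic2 fell by 0.70 and 0.69. The Zic calls were lost without RESTko array a (adjusted p = 0.14) and RESTko array b (adjusted p = 0.0555).

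Chromosome 8 stood apart from every other autosome. It holds 955 of the measured genes (4.79%) but 250 of the 808 that fell (30.9%). Of its genes 26.2% fell and 1.99% rose, whereas on the other autosomes 1.49% to 3.70% fell and 3.37% to 7.74% rose. Among the 555 chromosome 8 genes in the upper 50% of ES signal the median difference was -0.26, a 0.833-fold signal, with an interquartile range of -0.38 to -0.13, and 87.6% of them lay below 0. For the other autosomes the medians lay between 0.00 and 0.05, and 43.3% of 9062 genes lay below 0. The decreases were small and many: 187 of the 250 were under 0.5 in size, 59 between 0.5 and 1, and 4 above 1.

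**Figure D3:**
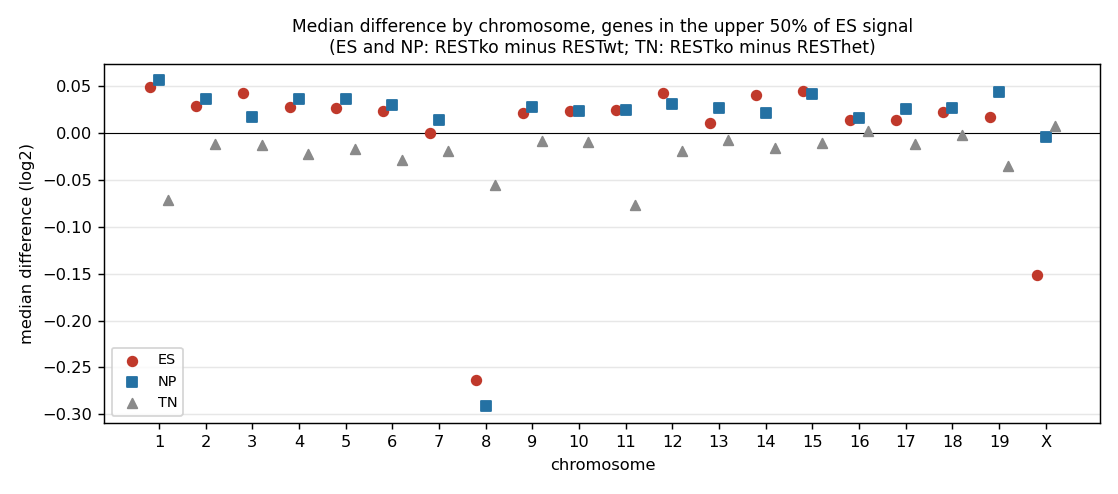
Median log2 difference (vertical axis) over genes in the upper 50% of ES signal on each chromosome at ES (circles), NP (squares) and TN (triangles). Chromosome 8 lies at -0.26 at ES and -0.29 at NP against -0.06 at TN, and X lies at -0.15 at ES and 0.00 at NP.

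The shift was present in each RESTko array. Relative to the other autosomes, the chromosome 8 offset was -0.32, -0.30 and -0.25 in the RESTko arrays a, b and c and 0.00, -0.01 and 0.00 in the RESTwt arrays. The groups did not overlap (mean difference -0.29, exact permutation test, two-sided p = 0.1, the smallest that 3 arrays against 3 can give). It was also present along the whole chromosome. In 10 consecutive stretches of 55 or 56 genes the median difference ran from -0.37 to -0.22, whereas in 163 stretches of like size on the other autosomes it ran from -0.05 to 0.13.

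**Figure D4:**
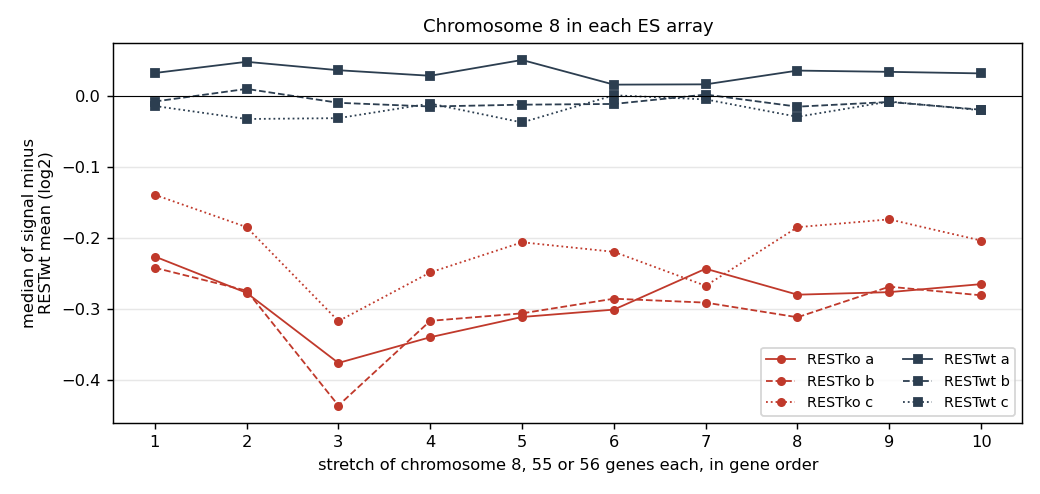
Median over each of 10 consecutive stretches of chromosome 8 (horizontal axis, in gene order, genes in the upper 50% of ES signal) of the log2 signal minus the RESTwt mean, 1 line for each ES array, with RESTko as circles and RESTwt as squares. All RESTko lines lie below all RESTwt lines in every stretch, and RESTko array c lies above a and b in 9 of the 10.

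A few chromosome 8 genes differed by much more than the chromosome. Kbtbd11, a BTB and kelch domain protein, read 4.59, 4.55 and 4.64 in RESTko and 6.78, 6.08 and 6.63 in RESTwt. It was 3.74-fold lower with no overlap (adjusted p = 2.87e-07, limma), and it lay 1.64 lower (adjusted p = 1.47e-06) after the offset of the chromosome was subtracted from each array. Micu3, a regulator of mitochondrial calcium uptake, read 6.81, 6.49 and 6.83 against 8.27, 8.04 and 8.09 (2.69-fold lower, adjusted p = 6.96e-08, limma). Snx25, a sorting nexin, fell by 1.04 (SE 0.11), Ufsp2, a UFM1 protease, by 0.97 (SE 0.10), Stox2, a winged helix protein, by 0.91 (SE 0.14) and Tenm3, a teneurin of synaptic wiring, by 0.90 (SE 0.10). Adgre5, the adhesion receptor CD97, fell by 1.08 (SE 0.25), and both its call and that of Zfp42 ended after the offset was subtracted (adjusted p = 0.053 and 0.154, limma). Besides Unc13a and Tex15, the largest increases on the chromosome were those of Smpd3, a neutral sphingomyelinase (1.37, SE 0.11), Efnb2, the ligand ephrin-B2 (0.85, SE 0.14), and Slc5a5, the sodium iodide symporter (0.81, SE 0.09). With the chromosome 8 offset subtracted, 1100 genes were higher and 570 lower in all, which moves the share of higher calls from 56.1% to 65.9%, and on chromosome 8 itself 34 were lower and 107 higher.

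Chromosome X was shifted by less. Of 739 genes 99 fell (13.4%) and 21 rose. The median of its 335 genes in the upper 50% of ES signal was -0.15, and 78.2% lay below 0. The offset from the autosomes was -0.16, -0.21 and -0.19 in the RESTko arrays and 0.00, -0.01 and 0.01 in the RESTwt arrays (mean difference -0.18, exact permutation test, two-sided p = 0.1, the smallest possible). Chromosomes 8 and X together held 349 of the 808 genes that fell (43.2%). When both offsets were subtracted, a step added after the data had been seen, 1111 genes were higher and 510 lower (68.5% higher). Xist, the noncoding RNA of X inactivation, read 5.04, 4.64 and 5.37 in RESTko and 4.72, 4.61 and 4.60 in RESTwt, so that the groups overlapped (difference 0.37, SE 0.42, adjusted p = 0.69, limma). The Y-linked genes Eif2s3y, Kdm5d and Uty read 2.44 to 3.30 in all 6 arrays and lay in the dimmest 30% of genes. What lies behind the shifts of chromosomes 8 and X was not tested.

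The effects at ES were set beside those at the later stages, where both genotypes were measured on other arrays. At NP 1602 genes were called (8.03%) and at TN, against heterozygous cells, 231 (1.16%). Of the 1034 genes higher at ES, 210 were also higher at NP (20.3% of the ES set and 24.4% of the NP set), and of the 808 lower at ES, 202 were lower at NP (25% and 27.3%). Chromosome 8 supplied 151 of these 202. Opposite calls were made for 56 genes higher at ES and lower at NP and for 11 lower at ES and higher at NP. The difference between the effects itself was called for 970 genes between NP and ES (4.87%) and for 1077 between TN and ES (5.4%).

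RE1 targets kept their direction from ES to NP. Of the 31 that rose at ES 28 rose at NP (90.3%, and 57.1% of the 49 that rose there), and the median of the list went from 0.53 to 1.11. The difference between the effects was called for 19 members, 16 larger at NP and 3 larger at ES. Scg3, Syp and Snap25 were the 3 larger at ES. For Scg3 the RESTwt arrays rose from 3.30 to 3.50 at ES to 6.85 to 7.43 at NP while the RESTko arrays rose from 8.08 to 8.26 to 9.41 to 9.60, and the difference shrank from 4.79 to 2.24 (interaction adjusted p = 5.15e-07, limma). Genes that were not called at ES but rose at NP included Th, the enzyme that makes L-DOPA (-0.04 and 1.71, interaction adjusted p = 8.48e-05, limma), and Cacng2, an AMPA receptor auxiliary subunit (-0.08 and 1.17, interaction adjusted p = 0.00125, limma).

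Keratins and junction genes went in opposite directions. At NP 0 of the 38 rose and 29 fell, with a median of -0.67, while 862 of all 19938 genes rose there and 740 fell. The difference between the effects was called for 26 members, each more positive at ES. Of the 13 that rose at ES 11 fell at NP (84.6%, and 37.9% of the 29). Krt8 lay between 10.13 and 10.62 in the RESTwt NP arrays and between 9.36 and 9.43 in the RESTko NP arrays, a difference of -0.97 against 1.60 at ES (interaction adjusted p = 0.000719, limma). In the smooth muscle and actin list 2 of 36 rose and 4 fell at NP. The difference between the effects was called for 14 members, each more positive at ES. Tagln, for example, was 1.49 higher at ES and 1.21 lower at NP (interaction adjusted p = 0.00014, limma). The comparator and RESTko arrays are separate at each stage, so the ES and NP contrasts share no arrays.

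**Figure D5:**
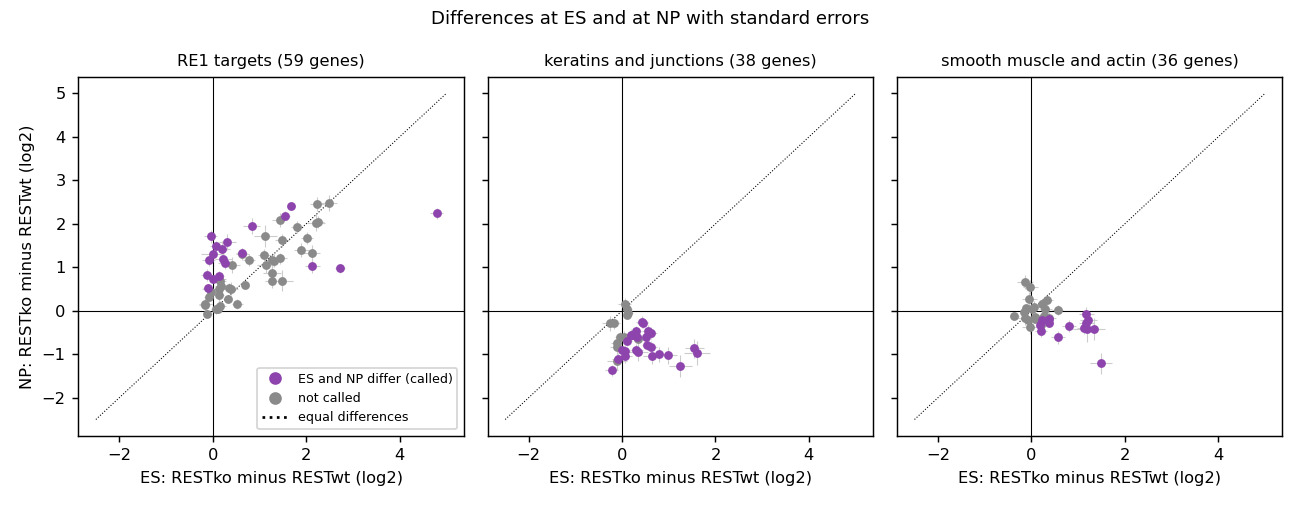
Difference between RESTko and RESTwt at ES (horizontal axis, log2) and at NP (vertical axis, log2) for each measured RE1 target, keratin or junction gene, and smooth muscle or actin gene, with standard errors as thin lines; purple points are genes whose ES and NP effects differ (limma, adjusted p under 0.05) and the dotted line marks equal differences. RE1 targets lie mostly in the upper right, with 28 called higher at both stages, whereas 26 keratin and junction genes and 14 smooth muscle genes are purple below the dotted line.

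Germline genes that were lower at ES were mostly not called at NP. Of the 16, 4 fell there too (25%), among them Cyct, by 1.24, and Smc1b, by 0.58. The share was the same over all genes lower at ES, of which 202 of 808 fell at NP (25%), but chromosome 8 supplied 151 of those 202. Outside chromosome 8 only 51 of the 558 genes lower at ES fell at NP, and only 2 of the 16 germline genes lay on that chromosome. Among the 12 largest decreases outside chromosome 8, germline or not, the difference between the effects was called for 10, Cyct and Pramel6 being the exceptions. For Smc1b both genotypes were far lower at NP, at 4.32 to 4.88 in RESTwt and 3.94 to 3.96 in RESTko. The chromosome 8 shift was also present at NP, with a median of -0.29 and an offset of -0.32 from the other autosomes (exact permutation p = 0.1). Its difference in size from the shift at ES was not tested. In all, 151 of the 250 chromosome 8 genes that fell at ES fell at NP (60.4%, and 51.2% of the 295 that fell there). Kbtbd11 was an exception. It was higher in RESTko at NP, at 6.20 to 6.48 against 4.85 to 5.23 (difference 1.23, interaction adjusted p = 4.23e-07, limma). At TN, where the comparator was heterozygous, the chromosome 8 offset was -0.02 (exact permutation p = 0.1). The X offset was -0.03 at NP (exact permutation p = 0.5) and 0.03 at TN (exact permutation p = 0.1), and 8 of the 99 X genes that fell at ES fell at NP. Xist was 5.27 higher in the arrays labelled RESTko than in those labelled RESThet at TN (adjusted p = 1.25e-06, limma).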

How the data were processed

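Values were log2 probe-set signals as deposited by the authors, read from a table of 18 arrays. The software oligo 1.14.0 is named per the submitters' processing notes, and its background correction, summarization and normalization were not given in the sources used here. All 18 columns were matched to samples by title (0 columns were left without a sample), and 6 arrays of another platform and a mixed strain were not used here. Of 35556 probe sets 21789 carried a single gene symbol, 1621 several and 12146 none; 21698 matched the annotation GRCm38.p6 by gene number, which gave the chromosome. A gene was represented by its probe set with the highest mean over the 18 arrays, for 19938 genes. The number of arrays limits the precision, since arrays carry no depth.

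A mean per group was fitted to all 18 arrays with limma 3.58.1 in R 4.3.3 (lmFit, eBayes, two-sided), without a replicate block, with Benjamini-Hochberg adjustment over the genes of each contrast. Contrasts were RESTko minus RESTwt at ES and NP, RESTko minus RESThet at TN, and their differences. The scripts were tested on simulated data. Offsets of chromosomes 8 and X were medians, over genes in the upper 50% of ES signal, of each array's signal minus the comparator mean, less the same median over the other autosomes, and were compared by exact permutation.

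Named genes are Rest, the 15 largest increases, the 12 largest decreases outside chromosome 8, on chromosome 8 the 8 largest decreases and 5 largest increases among called genes without overlap between groups, and for each of 21 gene lists up to 8 called members per direction and up to 6 uncalled ones with the highest ES signal, plus Xist and Y-linked genes. Predicted genes, olfactory and vomeronasal receptors and small RNAs were left out. Genes named outside this rule (Dner, Crip2, Lhfpl5, Gria2, Scg2, Tubb3, Nefh, Rundc3a, Mapk8ip2, Piwil2, Dazl, Mael, Hormad2, Syce2, Nanos3, Gtsf1, Sycp3, Ddx4, Th) are list or promoter examples chosen after their values were seen. The comparison, the gene lists and the tests were chosen with earlier results of these data known, and the germline list holds genes named in them, so its counts are not independent evidence. Alternatives were the ES arrays alone, a replicate block, probe-set and signal filters, other normalizations, array weights, single arrays left out, and chromosomes 8 and X left out or their offsets subtracted.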

Additional observations from a re-analysis of the deposited data

Results flagged for a closer look

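Each result here is a difference between the ES effect and the effect at a later stage that was itself called by limma (adjusted p under 0.05). Genes are shown if they were among the largest changes at ES, or were called in opposite directions at ES and NP. Values are the effect at NP minus the effect at ES on the log2 scale, so a negative value means that RESTko lay relatively higher at ES. Such a difference was called for 970 genes between NP and ES and for 1077 between TN and ES, and the TN effect was measured against heterozygous cells.

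Of the 211 neuronal genes, 30 had a called effect more positive at NP and 6 more positive at ES, against 461 and 509 of all 19938 genes. The rule showed only neuronal genes of the second kind. The difference was -2.55 for Scg3, -1.74 for Syp and -1.11 for Snap25, which rose at both stages and by less at NP. It was -1.01 for the netrin receptor gene Unc5b, which rose at ES and fell at NP. Genes outside the neuronal lists that rose at ES included Anxa3 (-2.76), Calml4 (-2.25), Colec12 (-2.14), Letmd1 (-1.75) and Sgcb (-1.60), of which only Sgcb was called at NP, by 0.53.

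Keratin and junction genes are shown for their opposite calls at ES and NP, which were part of the rule that chose them. Krt8 (-2.57), Krt19 (-2.52), Krt18 (-2.41), Dsc2 (-2.01), Krt7 (-1.80), Cldn6 (-1.68), Grhl2 (-1.46) and Perp (-1.12) were each called higher at ES and lower at NP. Tagln of smooth muscle (-2.70), the imprinted trophoblast gene Peg10 (-1.25) and the epiblast growth factor gene Fgf5 (-1.14) did the same.

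Genes that fell at ES had positive values. They were 1.45 for Smc1b, 1.77 for Dnajc5g, 1.32 for Ct55, 1.49 for Nlrp4f, 1.86 for Ogdhl, 0.99 for Pla2g4a, 1.11 for Efhc2, 1.71 for Epha4, 1.02 for Taf9b and 1.13 for Ceacam1. Of these, Smc1b and Ct55 were also called lower at NP, by less. Zic2 (1.27), lower at ES, was higher at NP.

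On chromosome 8 the value was 3.13 for Kbtbd11, 1.05 for Micu3, 0.94 for Stox2 and 0.80 for Snx25, all lower at ES, and -1.26 for Efnb2, -1.24 for Slc5a5, -1.13 for Tex15 and -0.59 for Smpd3, all higher at ES. The offset of the chromosome as a whole was -0.29 at ES and -0.32 at NP, and the difference between these was not tested.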

How the results depend on the processing

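Over 19 other settings, 94 of 117 called named genes stayed called wherever they were measured and 0 changed direction; the others are named with their array beside the result. Counts of all genes were less stable. Leaving out 1 array at a time gave 1190 to 1777 called genes, 680 to 1013 higher and 492 to 764 lower, with 24.9% to 36.7% of the lower ones on chromosome 8. The lowest counts came without RESTwt array c (1190) and without RESTko array a (1199), and the lower count fell by over 1.5 times without RESTko array a (492), RESTko array b (500), RESTwt array b (533) or RESTwt array c (510). Array weights gave 3430 called genes, 1726 higher and 1704 lower (50.3% higher against 56.1%), with 20.5% of the lower ones on chromosome 8 and 1537 genes whose NP and ES effects differed; the cause was not tested. Testing every probe set gave 25.5% of lower calls on chromosome 8. With fewer genes tested, the lower count was 527 without chromosome 8 and 414 without chromosomes 8 and X, and with both offsets subtracted it was 510. Over all measured chromosome 8 genes, dim ones included, the median was -0.17. Without the dimmest 30% of genes the germline list held 9 decreases, since dim members were not tested, and leaving out single arrays gave 11 to 16. Leaving out single arrays gave 40 to 44 increases and 1 to 5 decreases in the neuronal lists, 30 to 31 in the RE1 list, 9 to 12 in the keratin list and 10 to 12 in the smooth muscle list. Promoter matches depended on the rule: 9 genes held the exact pair, 43 the pair with 1 mismatch, 1343 CAGCACC and 4030 GGACAG.

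The replicate letters are shared between groups, but same-letter deviations correlated by 0.11 (a), 0.15 (b) and -0.05 (c), so the letters were not taken as pairs. These values do not speak for single genes: array c was the lowest of both groups for Krt8, Krt18, Krt19, Tagln and Anxa3. With the replicate block 1026 genes were higher and 800 lower, with 28.6% of the latter on chromosome 8. The keratin list then held 11 increases and the smooth muscle list 15, against 13 in each without the block. With 3 arrays a group and a median SE of 0.10, small differences were often not detectable, and dim genes lie near the background signal of the array.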

Other observations

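Lists of early lineages held calls in both directions at ES, where 5.19% of all genes rose and 4.05% fell. Of 27 neural progenitor and proneural genes 4 rose (14.8%) and 1 fell (3.70%), with a median of -0.06. Neurod1, a proneural transcription factor, read 5.55, 5.29 and 5.88 in RESTko and 4.58, 4.38 and 3.89 in RESTwt, a 2.45-fold difference with no overlap (adjusted p = 0.000389, limma). The calls of Nes, the progenitor intermediate filament nestin (0.75), Sox11, a factor of immature neurons (0.57), and Prom1, a progenitor membrane protein (0.45), were each lost without RESTwt array c (adjusted p = 0.0795, 0.0505 and 0.14, limma). Eomes, which marks mesendoderm and intermediate progenitors, fell by 0.48 (SE 0.10), and Sox1, an early neural marker, differed by -0.01 (SE 0.12).

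Of 25 extraembryonic endoderm genes 2 rose (8%) and 1 fell (4%). Dab2, an endocytic adaptor, read 5.78, 5.43 and 5.99 against 4.64, 4.52 and 4.46 (2.29-fold, adjusted p = 0.000338, limma). Lamb1, a laminin chain, rose by 0.68, a call lost without RESTko array a (adjusted p = 0.105), and Hnf4a, a visceral endoderm factor, fell by 0.55 (SE 0.10). Of 18 trophoblast genes 4 rose (22.2%) and 1 fell (5.56%): the imprinted genes Peg10 by 0.75 (SE 0.13) and Cdkn1c by 0.61 (SE 0.13), the receptor gene Fgfr2 by 0.38 (SE 0.08) and the morphogen gene Bmp4 by 0.79, while Gata2, a trophoblast transcription factor, fell by 0.57. The calls of Bmp4 and Gata2 were lost without RESTwt array c (adjusted p = 0.183 and 0.105, limma). Of 6 measured genes of the 2-cell state 0 were called by limma (0 higher and 1 lower at an unadjusted p under 0.05), and all 6 lay in the dimmest 30% of genes.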
